A study of Mus musculus with 3 samples.

Results

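A set of 9 genes of the endothelial tight junction were followed in isolated brain vessels: Cldn5, Ocln, Marveld2, Lsr, F11r, Jam2, Esam, Tjp1 and Cgnl1. They were taken by name, as known junction genes of brain endothelium, and make up 9 of the 29917 genes in the expression tables. Polyadenylated RNA of brain vessels was sequenced in 3 libraries, with 1 library per group, each from the pooled vessels of 3 male mice aged 3 months. The first group was wild type on a C57BL6 background (C57BL6 WT), the second was wild type on a mixed background (C57BL6-BALB/c WT), and the third, Cx30-/-, lacked connexin 30 in every cell and not only in astrocytes. The sample labels place the Cx30-/- mice on C57BL6, while the study's methods place them on the mixed C57BL6 and BALB/c background, so the WT library that matches them by strain differs between these sources. The study prepared both WT libraries because background alone can change transcript levels, and asked which transcripts of the vessel wall differ when Cx30 is missing.

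Tight junctions seal the space between neighboring endothelial cells and form the physical part of the blood-brain barrier. Claudins set how tight the seal is, occludin and its relatives organize the strands and their corners, adhesion molecules of the immunoglobulin superfamily hold the membranes together, and cytoplasmic scaffolds tie the complex to actin. In brain capillaries claudin-5 is the dominant claudin, and its loss opens the barrier to small molecules.

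Promoter sequences are shown for Cldn5, Ocln and Marveld2, since Cldn5 and Marveld2 were the genes whose levels departed most from the rest, and Ocln is the neighbor of Marveld2 on chromosome 13 with the common pattern. Each line gives the 250 bases before the RefSeq start (GRCm38.p6), 5′ to 3′ on the gene's strand, with matches to the motifs named below in capitals.

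Cldn5, chr16:18776597-18776846, plus strand: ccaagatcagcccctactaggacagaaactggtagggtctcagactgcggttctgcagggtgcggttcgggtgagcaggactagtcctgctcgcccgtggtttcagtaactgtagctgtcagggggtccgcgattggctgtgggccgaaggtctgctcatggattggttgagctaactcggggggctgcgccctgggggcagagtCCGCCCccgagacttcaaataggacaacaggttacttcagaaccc
Ocln, chr13:100552499-100552748, minus strand: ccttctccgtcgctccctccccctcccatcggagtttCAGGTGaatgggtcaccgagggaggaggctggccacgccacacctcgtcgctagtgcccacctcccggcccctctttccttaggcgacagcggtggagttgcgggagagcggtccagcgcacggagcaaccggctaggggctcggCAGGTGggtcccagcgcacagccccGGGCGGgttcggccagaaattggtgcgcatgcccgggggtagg
Marveld2, chr13:100616972-100617221, minus strand: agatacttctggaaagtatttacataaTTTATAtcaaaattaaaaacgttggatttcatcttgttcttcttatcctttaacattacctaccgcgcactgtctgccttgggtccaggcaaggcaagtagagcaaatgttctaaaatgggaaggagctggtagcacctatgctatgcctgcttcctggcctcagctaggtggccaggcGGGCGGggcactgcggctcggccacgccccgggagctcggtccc

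Promoters of 7 of the 9 genes were found in the RefSeq set: Cldn5, Ocln, Tjp1, Marveld2, Lsr, F11r and Cgnl1. A RefSeq start need not be the outermost annotated start of the gene. Most of the Ocln window lies inside the annotated gene, which ends at 100552718, and the last bases of the F11r window also do. The Tjp1 window (65371245 to 65371494) lies wholly inside its gene (65296165 to 65527781). The GC box letters GGGCGG, searched on both strands as all motifs were, occurred in 7 of these 7 windows and in 32.7% of all 32851 promoters of the same length. In Cldn5 the match began 45 bases before the start, in Ocln 43 bases and in Marveld2 44 bases. A match beginning 40 to 60 bases before the start was present in 5 of the 7, adding Tjp1 and F11r, against 9.07% of all promoters, in a window chosen after the matches were seen. The E-box CACCTG occurred in 3 of the 7 (Ocln, Lsr and F11r) and in 17.2% of all promoters. The TATA box letters TATAAA were found in 1 of the 7, Marveld2, and in 12.4% of all promoters. In Marveld2 they lay 223 bases before the start on the opposite strand. Rad17 lies 193 bases upstream of Marveld2, so this match and the far end of the window lie inside the annotated Rad17 gene. The ETS core CCGGAA occurred in 1 of the 7, Lsr, against 12% of all promoters. Neither the forkhead letters GTAAACA (3.17% of all promoters) nor the SOX letters ACAATG (10.7%) occurred in these windows. The Marveld2 window had a GC content of 50.4%, below the median of 52.4% over all promoters, whereas the other 6 ranged from 59.6% in Cldn5 to 70.8% in Cgnl1. Matches of letters are descriptions of the sequence, and the libraries hold no measurement of binding.

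Counts over all transcript rows summed to 60725557 in C57BL6 WT, 53484865 in C57BL6-BALB/c WT and 50375426 in Cx30-/-. A read on a shared exon was counted for each transcript, so these sums exceed the number of reads. Values below are the counts of 1 row per gene divided by median-of-ratios size factors (normalized read counts). The deleted gene Gjb6 (ENSMUSG00000040055), which encodes Cx30, had 2531.4 normalized read counts in C57BL6 WT, 2425.9 in C57BL6-BALB/c WT and 100.7 in Cx30-/-. With 1 library per group there is no spread between replicates, and the 95% exact binomial intervals given with log2 ratios cover counting error only and leave out how mice or preparations vary. A ratio between vessel libraries can come from more endothelial cells or from more RNA per cell, and these cannot be told apart. The defining endothelial markers were present in each library, and no gene of the endothelial list was at 0.

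The 9 genes were higher in Cx30-/- than in both WT libraries in 9 of 9 cases, against 37.1% of all genes with at least 50 normalized read counts. For Marveld2 the difference from C57BL6-BALB/c WT lay within counting error. The direction of the 9 genes depended on the scaling. When counts were scaled to 20 endothelial markers, 0 of 9 lay above both WT libraries, where 4.29% of all genes did. At least a 2-fold difference from C57BL6 WT was seen for 1 of the 9, Marveld2, where 2.68% of all genes passed that mark. Against C57BL6-BALB/c WT 1 of the 9 passed, Cldn5, where 8.69% of all genes did. Between the WT libraries 2 of the 9 passed, Cldn5 and Marveld2 in opposite directions, where 3.43% of all genes did. A 2-fold difference in the same direction from both WT libraries was found for 0 of the 9 and for 1.42% of all genes. The comparisons share libraries and are not independent of each other.

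**Figure D1:**
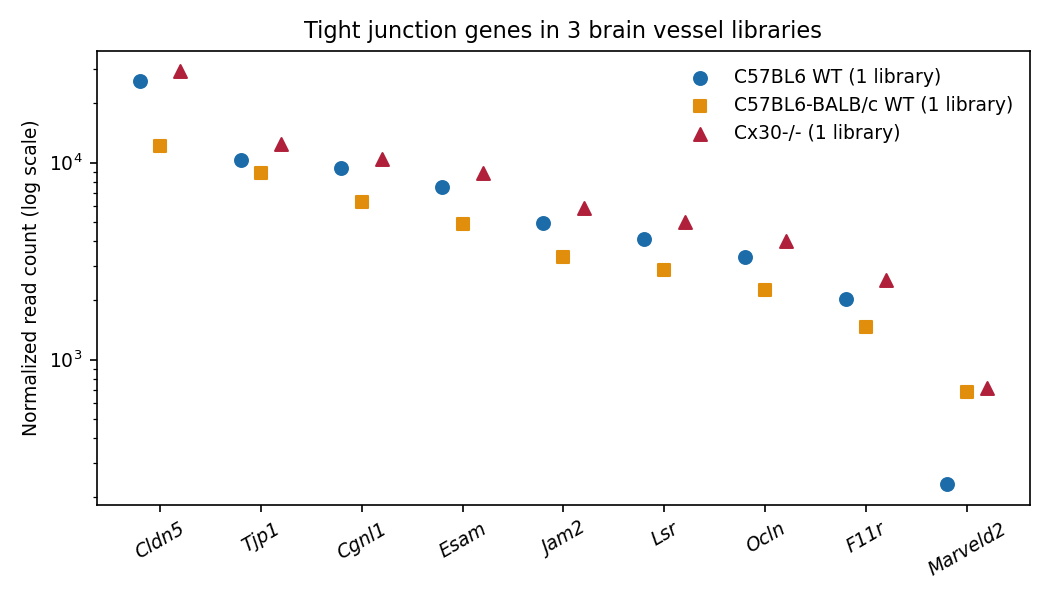
Normalized read counts (log scale) of the 9 tight junction genes, ordered by level, with 1 point for each library and no error bars because each group is 1 library. Cx30-/- is the highest point for each gene on this scaling, for Marveld2 within counting error of C57BL6-BALB/c WT. After scaling to endothelial markers 0 of the 9, and 4.29% of all genes, are above both WT libraries. C57BL6-BALB/c WT is the lowest for 8 genes and C57BL6 WT is the lowest for Marveld2.

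Cldn5 (ENSMUSG00000041378, chromosome 16, 18776847 to 18778262, plus strand, GRCm38), which encodes the main sealing claudin of the brain endothelium, had 25826.1 normalized read counts in C57BL6 WT, 12122.1 in C57BL6-BALB/c WT and 29047.2 in Cx30-/-. The mixed-background WT library was thus the low one, at 46.9% of the C57BL6 WT level. The log2 ratio of Cx30-/- to C57BL6 WT was 0.17 (0.15 to 0.19), that to C57BL6-BALB/c WT was 1.26 (1.23 to 1.29), and that between the WT libraries was -1.09 (-1.12 to -1.06). The difference between Cx30-/- and C57BL6 WT was therefore small beside the difference between the WT libraries. Its transcript is a single exon of 1414 bases in the deposited files, and all of its bases were covered in each library.

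Ocln (ENSMUSG00000021638, chromosome 13, 100496507 to 100552718, minus strand) encodes occludin, the tetraspan protein of the junction strands. Its normalized read counts were 3317.3 in C57BL6 WT, 2246.6 in C57BL6-BALB/c WT and 3979.1 in Cx30-/-. The log2 ratio of Cx30-/- was 0.26 (0.20 to 0.33) to C57BL6 WT and 0.82 (0.75 to 0.90) to C57BL6-BALB/c WT, the latter a 1.77-fold difference. The order of the libraries was that of Cldn5, with a smaller drop in the mixed-background WT.

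Marveld2 (ENSMUSG00000021636, chromosome 13, 100595957 to 100616971, minus strand) encodes tricellulin, the occludin relative at corners where 3 cells meet. It was the least abundant of the 9 genes, with 233.1 normalized read counts in C57BL6 WT, 685.9 in C57BL6-BALB/c WT and 714.4 in Cx30-/-, from raw counts of 267, 635 and 681. Here the low library was C57BL6 WT, and the other 2 were alike within counting error. The log2 ratio of Cx30-/- was 1.62 (1.41 to 1.83) to C57BL6 WT and 0.06 (-0.10 to 0.22) to C57BL6-BALB/c WT. Between the WT libraries the mixed background was higher by a log2 ratio of 1.56 (1.35 to 1.77), opposite to the other 8 genes. The reads were spread along the transcript in each library, with 201, 73 and 69 of 3036 bases without a read in C57BL6 WT, C57BL6-BALB/c WT and Cx30-/-.

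The genes beside Marveld2 are named here because of their position, after its values were seen. Ocln lies 43239 bases away on one side and was lower in C57BL6-BALB/c WT than in C57BL6 WT. Rad17, a checkpoint gene that lies 193 bases away on the other side, had 604.3, 654.5 and 623.1 normalized read counts in C57BL6 WT, C57BL6-BALB/c WT and Cx30-/-. Gtf2h2, a gene of the transcription factor TFIIH 3928 bases beyond Ocln, had 415.6, 546.5 and 503.5 in the same order. Log2 ratios between the WT libraries were thus 0.12 for Rad17 and 0.40 for Gtf2h2 beside 1.56 for Marveld2, and Ocln ran the other way. No counting intervals were computed for Rad17 and Gtf2h2, and whether they share the pattern of Marveld2 was not tested.

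Lsr (ENSMUSG00000001247, chromosome 7, 30957770 to 30973464, minus strand) encodes angulin-1, which recruits tricellulin to tricellular contacts. It had 4105.8 normalized read counts in C57BL6 WT, 2834.2 in C57BL6-BALB/c WT and 4984.0 in Cx30-/-. In spite of the shared site of their proteins, Lsr ordered the libraries as Ocln did and not as Marveld2 did, with log2 ratios of Cx30-/- of 0.28 (0.22 to 0.34) to C57BL6 WT and 0.81 (0.75 to 0.88) to C57BL6-BALB/c WT. The library kit does not mark strand, and 966 bases of its exons overlap Gm17077 and Gm4673 on the opposite strand, so reads there cannot be assigned to 1 gene. Exons of the other 8 genes overlapped no other annotated gene.

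F11r (ENSMUSG00000038235, chromosome 1, 171437535 to 171464603, plus strand) encodes JAM-A, a junctional adhesion molecule of the immunoglobulin superfamily. Its normalized read counts were 2036.3 in C57BL6 WT, 1456.0 in C57BL6-BALB/c WT and 2543.9 in Cx30-/-, with log2 ratios of Cx30-/- of 0.32 (0.24 to 0.40) and 0.81 (0.71 to 0.90) to the WT libraries in that order. Jam2 (ENSMUSG00000053062, chromosome 16, 84774123 to 84825928, plus strand), which encodes JAM-B of the same family, had 4945.9, 3316.0 and 5904.1, with log2 ratios of 0.26 (0.20 to 0.31) and 0.83 (0.77 to 0.90). Esam (ENSMUSG00000001946, chromosome 9, 37528078 to 37538319, plus strand), an adhesion molecule of endothelial cells and platelets, had 7527.1, 4907.0 and 8873.9, with log2 ratios of 0.24 (0.19 to 0.28) and 0.85 (0.80 to 0.91). The adhesion genes therefore differed little among themselves, each being lowest in the mixed-background WT library and between 1.75-fold and 1.81-fold higher in Cx30-/- than there.

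The scaffolds were less uniform. Tjp1 (ENSMUSG00000030516, chromosome 7, 65296165 to 65527781, minus strand) encodes ZO-1, which links claudins and occludin to actin, and had 10279.5 normalized read counts in C57BL6 WT, 8835.3 in C57BL6-BALB/c WT and 12483.7 in Cx30-/-. Its log2 ratio of Cx30-/- to C57BL6 WT, 0.28 (0.24 to 0.32), was like that of Ocln and Lsr, but that to C57BL6-BALB/c WT, 0.50 (0.46 to 0.54), was lower than in each of the other genes except Marveld2. Cgnl1 (ENSMUSG00000032232, chromosome 9, 71626509 to 71771602, minus strand), which encodes paracingulin, a binding partner of ZO-1, had 9436.8, 6289.5 and 10376.2, with log2 ratios of 0.14 (0.10 to 0.18) and 0.72 (0.68 to 0.77). The WT libraries differed by -0.22 (-0.26 to -0.18) for Tjp1 and by -0.59 (-0.63 to -0.54) for Cgnl1.

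The C57BL6-BALB/c WT library was lower than the C57BL6 WT library for 8 of the 9 genes, against 50% of all genes, a direction that depended on the scaling, since that to endothelial markers adds 0.63 to each log2 ratio between the WT libraries. The median log2 ratio over the 9 genes was 0.26 for Cx30-/- to C57BL6 WT, 0.81 for Cx30-/- to C57BL6-BALB/c WT and -0.56 between the WT libraries, beside medians over all genes tested of 0.00 in each. Median-of-ratios scaling itself sets these medians over all genes close to 0.00 and the share of all genes that were lower close to 50%. Cldn5 held the lowest and Marveld2 the highest of the 9 log2 ratios between the WT libraries.

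Markers of the endothelium moved with these genes. The list held 20 genes, among them Pecam1, Cdh5 and the glucose transporter gene Slc2a1, and its summed level was 213900.3 normalized read counts in C57BL6 WT, 140041.3 in C57BL6-BALB/c WT and 249515.9 in Cx30-/-. All 20 were higher in Cx30-/- than in C57BL6 WT, with a median log2 ratio of 0.22 that ran from 0.04 (Itm2a) to 0.61 (Egfl7). Against C57BL6-BALB/c WT the median was 0.85, from 0.49 (Mfsd2a, a lipid transporter of the barrier) to 1.38 (Egfl7), and between the WT libraries it was -0.67, from -1.14 (Emcn) to -0.21 (Ramp2). In each of the 3 comparisons 8 of the 9 tight junction genes lay inside the range of the endothelial list, and Marveld2 lay outside.

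Within that range the genes took different places. Esam stood at the endothelial median, with 10 markers below and 10 above it against C57BL6-BALB/c WT, and Ocln, Jam2, Lsr and F11r stood just below it, by log2 differences from -0.01 to -0.04. Cldn5 exceeded the endothelial median by 0.41 in that comparison, and 3 of the 20 markers were higher. Tjp1 was below the median by a log2 difference of -0.35, and 1 marker was lower. The share of endothelial RNA in a library and the level per endothelial cell cannot be told apart from these values.

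**Figure D2:**
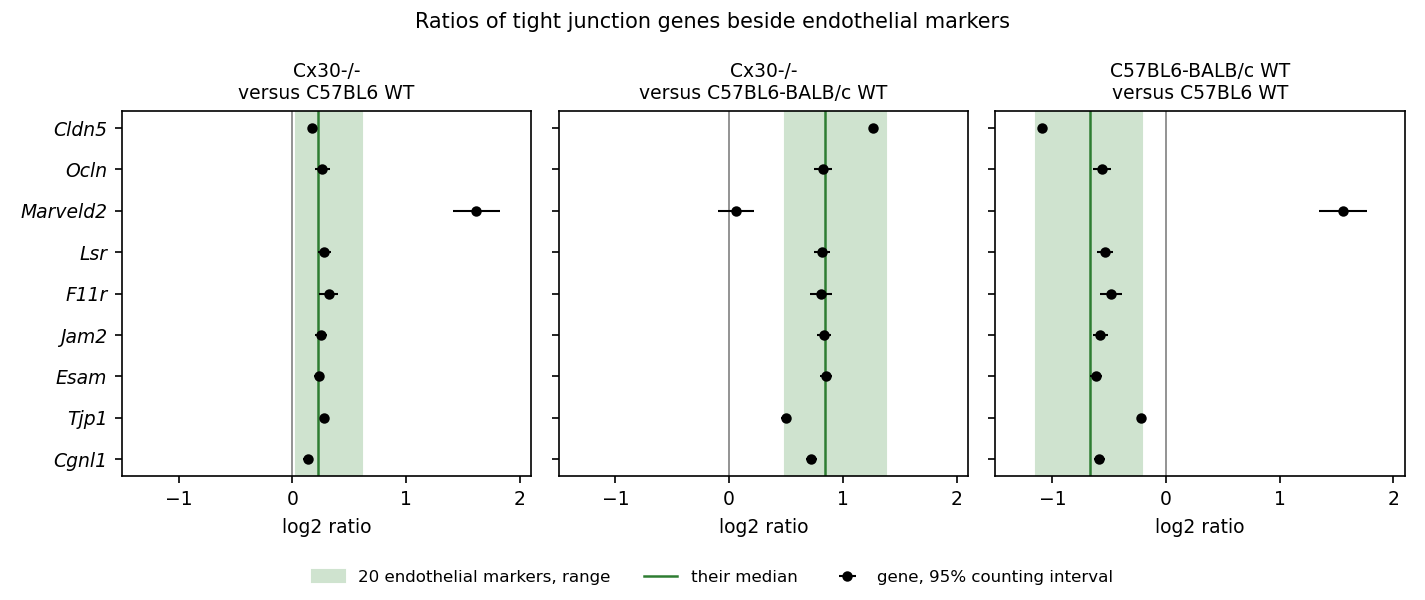
Log2 ratios of the 9 genes in the 3 comparisons (points, with 95% counting intervals as bars) beside the range (band) and median (green line) of 20 endothelial markers, with positive values higher in the group named first. Marveld2 lies outside the band in each panel, Cldn5 near its far end in the comparisons with C57BL6-BALB/c WT, and Tjp1 near its inner end. Scaling to the markers shifts all points of a panel by the same amount, by -0.23, -0.86 and 0.63 from left to right, which turns the sign of points that lie closer to 0 on the opposite side.

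Scaled to the endothelial markers, which shifted every log2 ratio by -0.23 for Cx30-/- to C57BL6 WT, by -0.86 for Cx30-/- to C57BL6-BALB/c WT and by 0.63 between the WT libraries, the 9 genes had medians of 0.04, -0.04 and 0.07. On that scale the log2 ratio of Cx30-/- to C57BL6-BALB/c WT was highest for Cldn5, at 0.41, and lowest for Marveld2, at -0.80. As the shift is the same for each gene, it leaves the order of the 9 genes as it was.

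Ratios of raw counts between genes inside a library need no scaling at all. Lsr had 1.24 (95% exact binomial interval 1.19 to 1.29), 1.26 (1.19 to 1.34) and 1.25 (1.2 to 1.31) reads for each Ocln read in C57BL6 WT, C57BL6-BALB/c WT and Cx30-/-. The ratio of Jam2 to Esam was 0.657 (0.635 to 0.68), 0.676 (0.645 to 0.708) and 0.665 (0.643 to 0.688), and that of F11r to Jam2 was 0.412 (0.392 to 0.432), 0.439 (0.412 to 0.468) and 0.431 (0.411 to 0.452). For these pairs the libraries overlapped within counting error, which does not show that the ratios are equal.

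Pairs with Cldn5 set the mixed-background WT library apart. Cldn5 had 7.79 (7.53 to 8.05) reads per Ocln read in C57BL6 WT, 5.4 (5.15 to 5.66) in C57BL6-BALB/c WT and 7.3 (7.06 to 7.55) in Cx30-/-. Per read of Tjp1 it had 2.51 (2.46 to 2.57), 1.37 (1.33 to 1.41) and 2.33 (2.28 to 2.38). Against Cdh5, the endothelial cadherin gene, the ratio was 2.97 (2.90 to 3.04), 2.16 (2.09 to 2.24) and 3.01 (2.94 to 3.08), so that Cx30-/- and C57BL6 WT overlapped and C57BL6-BALB/c WT was lower.

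Among the scaffolds, Tjp1 had 1.09 (1.06 to 1.12) reads for each Cgnl1 read in C57BL6 WT, 1.4 (1.36 to 1.45) in C57BL6-BALB/c WT and 1.2 (1.17 to 1.24) in Cx30-/-. Pairs with Marveld2 separated the 3 libraries from each other. Its ratio to Lsr was 0.0568 (0.05 to 0.0642) in C57BL6 WT, 0.242 (0.222 to 0.264) in C57BL6-BALB/c WT and 0.143 (0.132 to 0.155) in Cx30-/-. Its ratio to Ocln was 0.0703 (0.0618 to 0.0796), 0.305 (0.279 to 0.334) and 0.18 (0.165 to 0.195). Relative to its tricellular and occludin partners, Marveld2 was therefore lowest in C57BL6 WT, intermediate in Cx30-/- and highest in C57BL6-BALB/c WT.

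**Figure D3:**
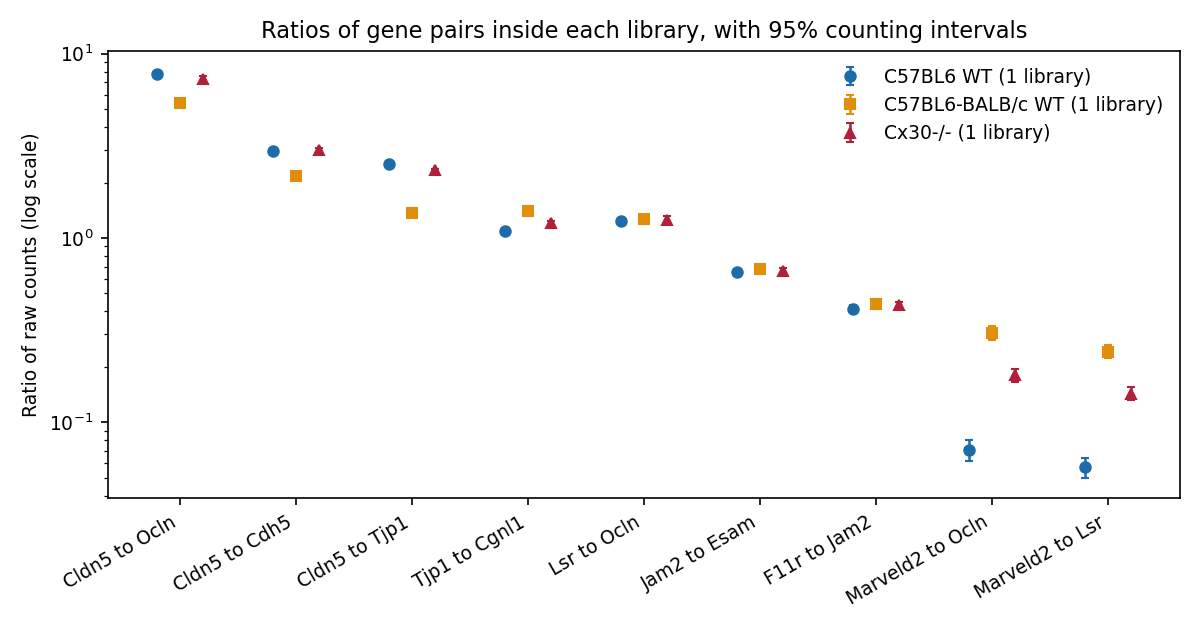
Ratios of raw read counts between gene pairs inside each library (log scale), with 95% exact binomial counting intervals as bars and 1 point per library. Lsr to Ocln, Jam2 to Esam and F11r to Jam2 keep overlapping intervals, the Cldn5 pairs are lowest in C57BL6-BALB/c WT, and the Marveld2 pairs are lowest in C57BL6 WT.

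Levels were compared between genes as normalized read counts per 1000 bases of transcript. Cldn5 was highest, with 18264.6 in C57BL6 WT, 8572.9 in C57BL6-BALB/c WT and 20542.6 in Cx30-/-, and ranked 16, 35 and 16 among 14979 genes in these libraries. Esam followed with 4036.0, 2631.1 and 4758.1, and Lsr with 1896.5, 1309.1 and 2302.1. The order after them was Tjp1, Cgnl1, Jam2, Ocln, F11r and Marveld2 in each of the 3 libraries, and among neighbors in that order only Lsr and Tjp1 in C57BL6-BALB/c WT were not separated by their counting interval (ratio 1.04, 0.999 to 1.09). Marveld2 closed the order with 76.8, 225.9 and 235.3. Transcript lengths are those of the deposited files, in which Ocln has 3192 bases against 4052 exonic bases in GENCODE. The level of Ocln per length and its place beside F11r therefore depend on that choice, which the counting intervals leave out.

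Cldn5 made up 60.7%, 50.5% and 59.1% of the summed level per length of the 9 genes in C57BL6 WT, C57BL6-BALB/c WT and Cx30-/-. Among 22 claudin genes in the files its share was 89.1%, 81.9% and 92.9%, and the next in each library was Cldn11, the claudin of myelin, at 1046.1, 943.6 and 696.9 per 1000 bases. In all 3 libraries Cldn5 was therefore the dominant claudin transcript, also where its own level was lowest.

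The files hold 29 transcript rows of the 9 genes, from 1 to 6 per gene, and a read on a shared exon was counted for each of them. All 29 were higher in Cx30-/- than in both WT libraries on the scaling to all genes, and rows of the same gene share reads, so they are not separate measurements. The log2 ratio of Cx30-/- to C57BL6-BALB/c WT ran from 0.81 to 0.84 over the 4 rows of Lsr, from 0.77 to 0.86 over the 5 rows of Esam and from 0.76 to 0.88 over the 3 rows of F11r. It was wider over the 6 rows of Cgnl1 (0.33 to 0.75), the 3 rows of Jam2 (0.59 to 0.91) and the 4 rows of Tjp1 (0.34 to 0.59). The lowest row was annotated as non-coding in Cgnl1 and Tjp1 and as protein coding in Jam2. Cldn5 and Marveld2 have 1 row each.

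The genes whose pattern came nearest to Cldn5, by the Euclidean distance in the log2 ratios of Cx30-/- to both WT libraries among 6297 genes with at least 1000 normalized read counts in some library, were Oasl2 (distance 0.05), Gng11 (0.06) and Rhob (0.06). Rhob, a small GTPase gene, had 2693.0, 1338.3 and 3098.9 normalized read counts in C57BL6 WT, C57BL6-BALB/c WT and Cx30-/-. With 3 libraries the likeness rests on 2 ratios.

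When both WT libraries were taken as 1 group, edgeR's quasi-likelihood test with Benjamini-Hochberg adjustment called 0 of the 9 genes at an adjusted p of 0.05, where 0.0512% of the 17576 genes tested were called. At an unadjusted p under 0.05 it also found 0 of the 9, where 8.69% of the genes tested lay under that mark, and DESeq2 called 0 of the 9 and 0.0488% of the genes it tested. The log2 fold change was 0.62 ± 0.50 (SE) for Cldn5, with an adjusted p of 0.845 in edgeR's quasi-likelihood test, and 0.65 ± 0.40 for Marveld2, with an adjusted p of 0.736. Over the 9 genes the adjusted p of this test ran from 0.658 to 0.894. The residual of this fit is the difference between the WT libraries, which holds their background, and leaves 1 residual degree of freedom. The SE was formed as the absolute log2 fold change over the square root of the test's F statistic. The spread of each gene was moderated toward that of all genes. The SE and p of a gene therefore do not measure its own difference between the WT libraries.

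The other genes of the tight junction were taken from a list of 56, of which 54 were in the files. Against C57BL6 WT 35 passed the minimum, 16 of them higher and 19 lower in Cx30-/-, with a median log2 ratio of -0.03 and 0 past 2-fold. Against C57BL6-BALB/c WT 36 passed, 15 higher and 21 lower, with a median of -0.16 and 1 past 2-fold in each direction. Their median thus lay near that of all genes, where the 9 endothelial genes had 0.26 and 0.81. Many of the 54 belong to junctions of epithelia and glia as well.

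The gene past 2-fold downward was Magi1, a scaffold with several PDZ domains, at 1312.4 normalized read counts in C57BL6 WT, 3784.7 in C57BL6-BALB/c WT and 1288.2 in Cx30-/-, a log2 ratio of -1.55 (-1.65 to -1.46) to the mixed-background WT. The gene past 2-fold upward was Amotl2, of the angiomotin family, at 2981.1, 2050.1 and 4238.2, with 1.05 (0.97 to 1.13) to the mixed-background WT and 0.51 (0.44 to 0.57) to C57BL6 WT. The other listed genes with the most reads per base were Arhgef2, Ybx3 and Jam3. Arhgef2, which encodes a guanine nucleotide exchange factor, had log2 ratios of 0.02 and -0.18 to C57BL6 WT and C57BL6-BALB/c WT, Ybx3, which encodes the ZO-1 partner ZONAB, 0.07 and 0.35, and Jam3, the paralog of Jam2, -0.11 and -0.28. For each Jam3 read there were 2.82 (2.68 to 2.96) Jam2 reads in C57BL6 WT, 1.69 (1.59 to 1.79) in C57BL6-BALB/c WT and 3.64 (3.44 to 3.85) in Cx30-/-, so these paralogs did not move together.

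**Figure D4:**
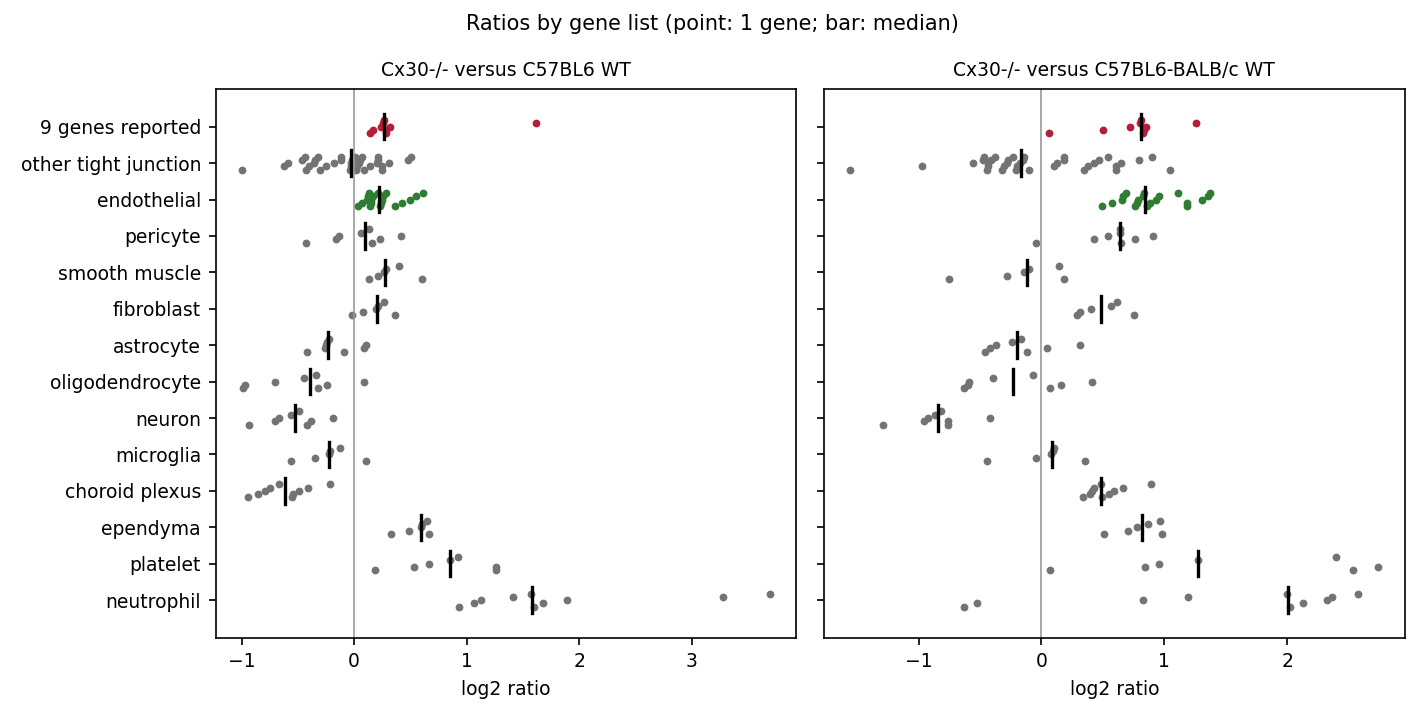
Log2 ratios of Cx30-/- to C57BL6 WT (left) and to C57BL6-BALB/c WT (right) by gene list, with 1 point per gene past 50 normalized read counts and a bar at the median. The 9 tight junction genes have medians of 0.26 and 0.81 beside 0.22 and 0.85 for endothelial markers and -0.03 and -0.16 for the other tight junction genes. Scaling to the endothelial list shifts every gene by -0.23 on the left and by -0.86 on the right, which turns the sign of points between 0 and that size.

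Markers of other cells in the preparation also differed between the libraries, and their part in the values of the 9 genes was not tested. No gene of these marker lists was at 0 in any library. The pericyte list of 8 genes had median log2 ratios of Cx30-/- of 0.10 to C57BL6 WT and 0.64 to C57BL6-BALB/c WT, and the fibroblast list of 6 had 0.20 and 0.49. The smooth muscle list of 6 had 0.27 and -0.12, with summed levels of 44011.6, 61688.6 and 57071.5 in C57BL6 WT, C57BL6-BALB/c WT and Cx30-/-. The mixed-background WT library was thus higher in smooth muscle transcripts and lower in endothelial transcripts than C57BL6 WT.

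Lists of cells outside the vessel wall were lower or little different in Cx30-/-, with medians of -0.53 and -0.84 for neurons, -0.40 and -0.23 for oligodendrocytes, -0.23 and -0.20 for astrocytes and -0.22 and 0.09 for microglia. The epithelia of the ventricles differed from each other. Ependymal genes were higher in Cx30-/- (0.60 and 0.82), and the choroid plexus list of 10, led by Ttr, was lower than in C57BL6 WT and higher than in C57BL6-BALB/c WT (-0.61 and 0.49). Its summed level was 150071.1 in C57BL6 WT, 58648.1 in C57BL6-BALB/c WT and 79473.0 in Cx30-/-. C57BL6 WT, lowest for Marveld2, was thus highest for this list, and the part of these cells in the Marveld2 values was not tested. Of the general epithelial list of 4 genes 2 passed the minimum, with medians of 0.35 and 0.77.

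Esam and F11r are also made by blood cells, and 2 lists of blood cells were higher in Cx30-/-. The platelet list of 9 genes had summed levels of 730.9, 555.2 and 1290.3 in C57BL6 WT, C57BL6-BALB/c WT and Cx30-/-, with median log2 ratios of 0.85 and 1.28 over the 7 past the minimum. The neutrophil list of 10 genes had summed levels of 677.6, 780.9 and 1942.8, with medians of 1.58 and 2.01. The part of blood cells in the Esam and F11r values was not tested.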

How the data were processed

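Transcriptomes of brain vessels were measured in 3 libraries (C57BL6 WT, C57BL6-BALB/c WT and Cx30-/-), each from the vessels of 3 mice, and the groups follow the labels. The submitters' processing notes name CASAVA 1.8.2, Bowtie and mm10. After trimming, quality filtering and alignment, with multiply matching reads dropped, the authors deposited a raw count of exonic alignments for every one of 82813 Ensembl transcripts. Next to it the deposited files hold that count as a fraction of the library's total (24830975 for C57BL6 WT, 21170766 for C57BL6-BALB/c WT and 20654144 for Cx30-/-), the transcript's length and its uncovered bases. Positions in the files reach 197054592 on chromosome 1, past the last annotated position of 195323493, so coordinates were taken from GENCODE M21 by transcript identifier. It named 69375 rows (83.8%), and for each of 29917 genes the row with the most reads was used.

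Normalized read counts are counts over median-of-ratios size factors (1.1452, 0.9258 and 0.9532). Ratios, with no pseudocount, were formed for genes with at least 50 normalized read counts in 1 of the libraries compared, and the 2-fold threshold and this minimum follow the study. Intervals are exact conditional binomial (Clopper-Pearson) intervals at 95% (scipy 1.17.1). Across all genes Cx30-/- was set against both WT libraries with edgeR 4.0.16 (R 4.3.3) by its quasi-likelihood test after filterByExpr and TMM, and with DESeq2 1.42.0 as an alternative. The procedures were run on simulated data, in which both WT libraries had the same means, the spread was below that fitted here, and planted changes were far above 2-fold. That run therefore does not cover differences between WT libraries or ratios under 2-fold. The 9 genes and the lists were chosen with earlier results of these data known. Named genes were the 9, other tight junction genes past 2-fold against a WT library, the 3 of them with the most reads per base, the 3 nearest to Cldn5, and leading or extreme genes of the marker lists. Alternatives were other scalings (TMM, the deposited total, upper quartile, endothelial markers), a pseudocount, other rows, count minimums and a 1.5-fold threshold.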

Additional observations from a re-analysis of the deposited data

How the results depend on the processing

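Scaling to the endothelial markers shifts every gene of a comparison alike and changed what was counted, over all genes too. Then 0 of the 9 genes passed 2-fold against C57BL6-BALB/c WT in place of 1 (40.3% of all genes in place of 8.69%), 1 in place of 2 between the WT libraries (18.3% in place of 3.43%), and 0 in place of 9 were higher in Cx30-/- than in both WT libraries (4.29% in place of 37.1%). At a 1.5-fold threshold 7 in place of 1 passed against C57BL6-BALB/c WT (28.9% of all genes) and 4 in place of 2 between the WT libraries (15.4%). The other 39 counts of genes kept within 1.5 times their value. With no count minimum, 1, 1 and 2 of the 9 passed 2-fold against C57BL6 WT, against C57BL6-BALB/c WT and between the WT libraries. The shares of all genes were then 17.4%, 22.7% and 18.2%, and 1.62%, 6.82% and 2.34% with 50 counts in each library. No log2 ratio past 2-fold changed sign. Scaling to endothelial markers changed the sign of 2, 8 and 7 of the 9 log2 ratios in the same comparisons. The other scalings, rows and pseudocount changed none. Of the log2 ratios of single genes, 150 moved by less than their counting interval and 39 by more, under scaling to endothelial markers or to the deposited total, the latter by at most 0.08. Over all genes, edgeR's quasi-likelihood test called 9, and 35 with relative log expression factors, 135 without the filter, 14 with summed rows and 22 with the longest row, while DESeq2 called 7. None of these called any of the 9 genes, and without the filter 1 of them had an unadjusted p under 0.05, as had 8.09% of all genes. No paired analysis was possible because each group is 1 library and the labels give no replicate numbers. Leaving out a WT library leaves no residual degree of freedom, and is then the ratio of the other libraries. Depth limited Marveld2 most, at 267 counts in C57BL6 WT. Background, mice and preparation of the WT libraries cannot be told apart.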

Other observations

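Claudins of other cell types were examined after the values were seen. Cldn2, a claudin of the choroid plexus, had 1121.2 normalized read counts in C57BL6 WT, 559.5 in C57BL6-BALB/c WT and 729.1 in Cx30-/-, with log2 ratios of Cx30-/- of -0.62 (95% exact binomial interval -0.76 to -0.49) and 0.38 (0.22 to 0.55) to the WT libraries in that order. The choroid plexus list had medians of -0.61 and 0.49 in the same comparisons. Cldn1 had 379.0, 167.4 and 189.9, with log2 ratios of -0.997 (-1.26 to -0.74) and 0.18 (-0.14 to 0.50). Cldn11, the claudin of myelin, had 1928.9, 1740.1 and 1285.1, with -0.59 (-0.69 to -0.48) and -0.44 (-0.55 to -0.33), beside medians of -0.40 and -0.23 for the oligodendrocyte list. Cldn12 had 1608.5, 1746.5 and 1255.7, with -0.36 (-0.46 to -0.25) and -0.48 (-0.59 to -0.37). Cldn5 was thus the only one of these 5 claudins that was higher in Cx30-/- than in both WT libraries on the scaling to all genes. On that scaling 37.1% of all genes were. Scaled to the endothelial markers, the log2 ratio of Cldn5 in Cx30-/- to C57BL6 WT was -0.06. Cldn10, not among the 5, had log2 ratios of -0.40 and -0.28 on the scaling to all genes.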
